A study of Mus musculus with 9 samples.

Results

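Immune cells break down tryptophan and arginine with a small group of enzymes, and 10 genes that encode such enzymes are described here in lung dendritic cells before and after culture. They were chosen by name, as the rows of the deposited table whose symbol is Ido1, Ido2, Kynu, Kmo, Haao, Il4i1, Arg1, Arg2, Nos2 or Tph1, and each name matched 1 row out of 45535 rows with a gene symbol. The cells were CD103+ dendritic cells, pulled with magnetic beads from collagenase-digested lungs of C57/BL6j mice given bleomycin for 7 days, a drug used to model lung fibrosis. The 5 samples before culture were harvested directly, while the 4 samples after culture came from cells kept for 18 h in serum-supplemented RPMI with antibiotics, so all 9 share the strain and the bleomycin treatment. No lung without bleomycin is part of the comparison, the number of mice behind each sample is not stated, and the extraction note speaks of total lung RNA although the design and the cell type label name isolated cells. The p-values measure the spread between these samples, which may be partly technical.

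The kynurenine pathway carries most tryptophan that is broken down in the body. IDO1, IDO2 and the liver enzyme TDO2 open the ring of tryptophan, AFMID then yields kynurenine, KMO hydroxylates it, KYNU cleaves the product and HAAO makes the precursor from which QPRT leads on to NAD. Loss of tryptophan and the presence of kynurenine are both known to restrain T cells, and IDO1 in dendritic cells is a classic example. IL4I1 is a secreted oxidase of phenylalanine and tryptophan, and TPH1 starts the route from tryptophan to serotonin outside the brain. Arginine is split into ornithine and urea by cytosolic ARG1 and mitochondrial ARG2, while NOS2, the inducible nitric oxide synthase, turns it into nitric oxide and citrulline.

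The values are normalized counts, that is, reads per gene divided by 1 size factor per sample, and they are not corrected for gene length. Depth was 14.7 to 35.3 M reads in rows with a symbol, and a single read corresponded to between 0.758 and 1.79 normalized counts. Itgae, which encodes CD103, was read in every sample, at 15948 to 20174 before and 1281 to 2034 after culture. Of 10 markers of type 1 conventional dendritic cells, 9 were lower and 1 was higher after culture. Markers of other cells were read too. Neutrophil markers summed to 12782 to 22024 before and 829.8 to 1706 after culture, and all 7 tested genes of that list were lower. The 3 genes too low to test did not move as 1 group. Ly6g was at 1.90 to 11.2 before and 0 after culture, while Camp was at 0 to 2.51 before and 3.04 to 6.82 after culture. Elane overlapped between the groups. Markers of endothelial cells, fibroblasts and epithelial cells also summed to less in every sample after culture than in any before. Of the 8 epithelial markers 6 were lower, while Krt8 (means of 213 and 251) and Krt18 (161 and 159) did not pass the threshold given below. The sum of T, NK and innate lymphoid cell markers went the other way, at 8105 to 10713 before and 16898 to 20368 after culture. Il7r alone stood at 2277 to 3298 before and 12286 to 14584 after culture. Of the 10 genes on that list 2 were higher and 6 lower, so the sum does not stand for the list as a whole. Sums of B cell markers overlapped, at 8036 to 11796 and 5962 to 8330. Macrophage and monocyte markers summed to 146376 to 208833 before and 177308 to 322754 after culture, so that their ranges overlapped. Lyz2 alone made up 50.5 to 60.7% of that sum before and 74.9 to 77.4% after culture. In such bulk samples, fewer cells of a type and less RNA per cell cannot be told apart.

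Across the 10 genes, Ido1, Ido2 and Il4i1 rose after culture, Kmo, Haao and Nos2 fell, Kynu, Arg1 and Arg2 did not pass the threshold, and Tph1 was too low to test. The threshold was an adjusted p of 0.05 in limma over the 18202 genes whose mean over all samples reached 10 normalized counts. By that rule 3 of the 9 tested genes were higher, where 34.2% of all tested genes were, and 3 were lower, where 34.6% were. In either direction 6 of 9 were called against 68.8% of all tested genes. The groups' values did not overlap for 6 of the 9, against 57.3% of all tested genes. The number of calls was therefore close to the background of this comparison, and the members differed in both the direction and the size of their changes. Ido2 passed the filter on low values only through its level after culture. The median log2 fold change of the 9 was 0.29, beside 0.01 over all tested genes.

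**Figure D1:**
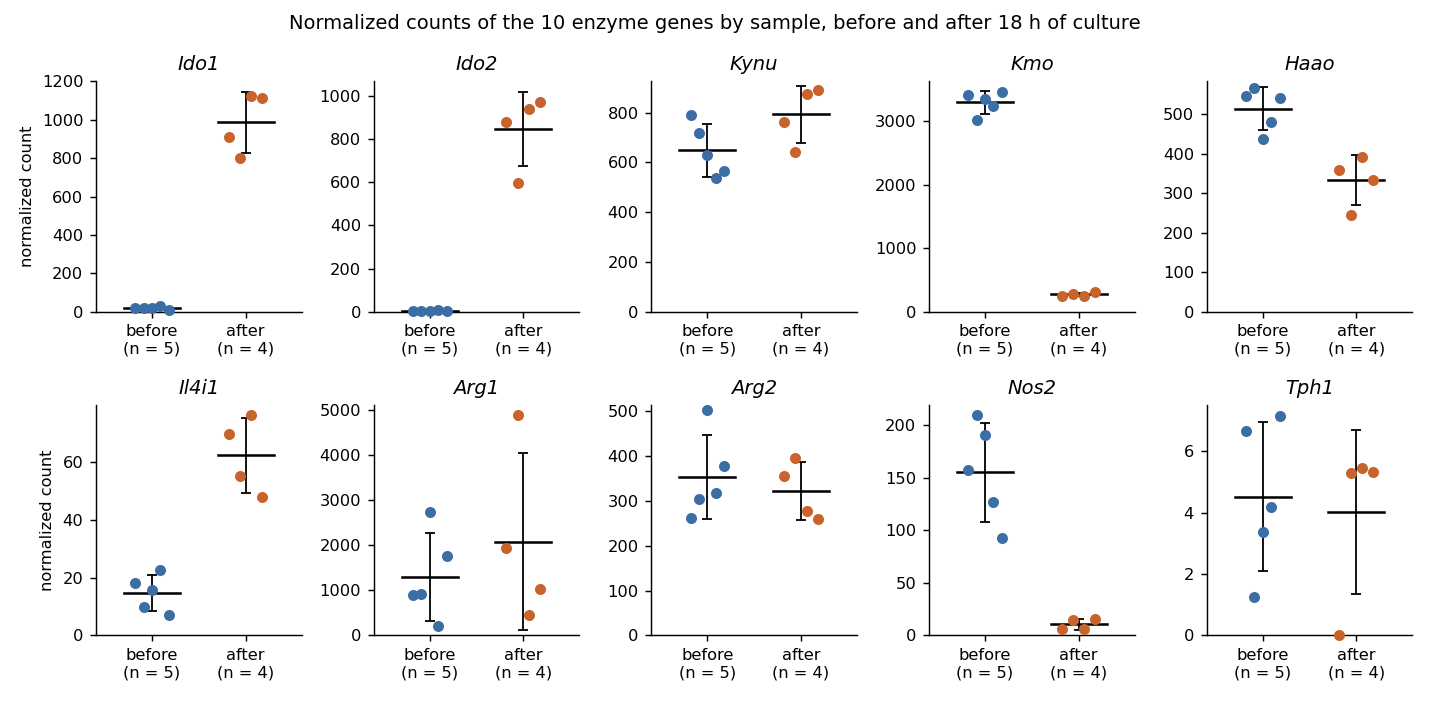
Normalized counts of the 10 enzyme genes in every sample, 5 taken before culture and 4 taken 18 h later, with a linear axis from 0 in each panel. Points are samples, long bars are means and whiskers are 1 SD; Ido1 and Ido2 go from near 0 to 597 and above, Kmo and Nos2 drop to a small part of their level before culture, and Arg1 is widely scattered in both groups.

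Ido1 and Ido2 encode the 2 indoleamine 2,3-dioxygenases and are neighbours on the minus strand of mouse chromosome 8, with Ido1 at chr8:24584136-24597009 and Ido2 at chr8:24531892-24576333 (GRCm38), a gap of 7803 bases. Their coding sequences, 1221 and 1215 bases in the GENCODE M21 annotation, were identical at 59.4% of aligned bases. The most alike stretch of 90 aligned bases, positions 237 to 326 of both coding sequences, is shown because reads can be assigned to the right gene only where the genes differ. Capitals mark the bases that differ between the genes, and 62 of the 90 are the same.
Ido1: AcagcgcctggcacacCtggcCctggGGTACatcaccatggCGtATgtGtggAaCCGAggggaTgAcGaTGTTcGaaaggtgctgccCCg
Ido2: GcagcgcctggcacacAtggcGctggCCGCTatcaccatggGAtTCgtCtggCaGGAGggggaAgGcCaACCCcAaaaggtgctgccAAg
The longest run of identical bases in the alignment was 15, and no window of 50 bases of either gene's longest transcript occurred in another gene.

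Ido1 was almost silent before culture and was well expressed afterwards. Its normalized counts before culture were 18.1, 19.8, 20.2, 31.8 and 10.7, and after culture 912, 801, 1123 and 1114. Every sample after culture lay far above every sample before. The group means were 20.1 ± 7.56 (SD, n = 5) and 987 ± 158 (SD, n = 4), a ratio of 49.1. The log2 fold change, computed on log2(value + 1), was 5.61 (SE 0.241, limma adjusted p = 2.78e-10). This was the 19th largest rise among the 18202 genes tested.

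Ido2 rose further than Ido1 on the log2 scale, from a level at the limit of detection. The samples before culture held 3, 1, 2, 7 and 1 reads of Ido2, and those after culture 994, 787, 1034 and 1280 reads. In normalized counts this was 2.86, 1.24, 2.24, 5.86 and 1.79 before and 878, 597, 941 and 973 after culture. The means were 2.80 ± 1.81 (SD, n = 5) and 847 ± 172 (SD, n = 4), and the log2 fold change was 7.89 (SE 0.305, limma adjusted p = 1.01e-10), the third largest rise among the 18202 genes tested. Its size depends on the pseudocount, since the group before culture rests on 14 reads in all, and it was 6.30 with a pseudocount of 8. Per kilobase of the longest coding transcript, Ido1 was 8.04 to 23.7 times as high as Ido2 in the samples before culture. After culture it was 1.54 to 1.99 times as high. The highest ratio, in replicate 2 before culture, rests on 1 read of Ido2. Per kilobase of all exon bases the ratio was 10.8 to 31.9 before and 2.07 to 2.67 after culture, so its size depends on the length used.

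The 3 genes whose pattern was most like that of Ido2 over the 9 samples were Apol7c, Serpinb9b and Ahrr. Likeness was the root mean square difference of log2(value + 1), centred on each gene's own mean. It was 0.545, 0.618 and 0.755 for these genes. With groups this far apart, the measure mostly picks genes whose change between the groups is of like size. These 3 genes rose by 7.11, 6.90 and 6.58 on the log2 scale. Apol7c went from a mean of 277.3 before to 37730 after culture, and Serpinb9b from 64.24 to 7574. Ahrr, which encodes the repressor of the aryl hydrocarbon receptor, had normalized counts of 8.66 to 24.8 before and 1312 to 1820 after culture.

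Il4i1 lies at chr7:44816387-44840809 on the plus strand (GRCm38), and it rose from a low level. Its normalized counts before culture were 18.1, 9.90, 15.7, 22.6 and 7.16, and after culture 69.8, 55.3, 76.4 and 47.9. The lowest sample after culture was above the highest before. The means were 14.7 ± 6.22 (SD, n = 5) and 62.4 ± 13.1 (SD, n = 4), a ratio of 4.24 or 2.09 on the log2 scale (SE 0.321, limma adjusted p = 6.15e-05).

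The value of Il4i1 is uncertain because other genes lie over it. In the annotation, 83.9% of the exon bases of Il4i1 are also exon bases of Tbc1d17, a gene on the opposite strand, and 86.3% lie in an exon of some other gene. Tbc1d17 itself rose from 1529 ± 140 before (SD, n = 5) to 9118 ± 2116 after culture (SD, n = 4), or 2.55 on the log2 scale (SE 0.137, limma adjusted p = 2.29e-09). Nup62, which shares 97 exon bases with Il4i1 on the same strand, rose from 1882 ± 193 to 2575 ± 212 (log2 fold change 0.45). The strandedness of the counts is not given in the sources used here, and without it reads from Il4i1 and Tbc1d17 cannot be told apart.

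Kmo, Kynu and Haao encode the enzymes that carry kynurenine towards NAD, and they did not move as 1 group. Kmo fell steeply, Haao fell by a smaller amount, and Kynu did not pass the threshold.

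Kmo was the most tightly reproduced of the enzyme genes. Its normalized counts before culture were 3408, 3016, 3357, 3243 and 3456, and after culture 251, 276, 247 and 312. No sample of one group came near the other group. The means were 3296 ± 176 (SD, n = 5) and 271 ± 30.2 (SD, n = 4), a 12.1-fold drop of −3.60 on the log2 scale (SE 0.0850, limma adjusted p = 1.96e-12). The spread within groups was 0.118 on the log2 scale, and 18.2% of tested genes had a smaller one. The 3 genes most like Kmo were Arsb, Per1 and Tmem88, with root mean square differences of 0.137, 0.143 and 0.148. Here too the measure mostly reflects the size of the change, which was −3.68, −3.48 and −3.53 on the log2 scale. Fh1 overlaps Kmo on the opposite strand but shares no exon base with it.

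Haao fell after culture by less than 2-fold. Its normalized counts were 547, 568, 439, 480 and 541 before and 360, 244, 391 and 335 after culture, so that the groups did not overlap. The means were 515 ± 53.7 (SD, n = 5) and 333 ± 63.4 (SD, n = 4), or −0.64 on the log2 scale (SE 0.135, limma adjusted p = 8.21e-04).

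Kynu had overlapping groups, at 792, 720, 631, 539 and 564 before and 764, 641, 873 and 893 after culture. Its means were 649 ± 106 (SD, n = 5) and 793 ± 116 (SD, n = 4), and its log2 fold change was 0.29 (SE 0.130, 95% interval 0.01 to 0.57, limma adjusted p = 0.0614). It passed the threshold without replicate 1 before culture (0.0229) or without replicate 2 after culture (0.0156) (over the 9 such fits the adjusted p reached 0.175), and its fold change turned to −0.12 when GC content and gene length were regressed out. Per kilobase, Kmo stood at 3.17 to 4.64 times the level of Kynu in the samples before culture and at 0.214 to 0.326 times after culture. Kynu in turn stood at 0.518 to 0.721 times the level of Haao before and 1.05 to 1.33 times after culture. These ratios depend on the length used. Per kilobase of all exon bases, Kmo over Kynu was 5.45 to 7.98 before and 0.367 to 0.560 after culture. Kynu over Haao was then 0.794 to 1.10 before and 1.61 to 2.03 after culture, so that Kynu was no longer below Haao in every sample before culture.

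Sequence upstream of the start site was at hand for 4 of the 10 genes from RefSeq (GRCm38.p6), and it is shown for the 3 of them that were called, which are the genes where a reader could look for elements that go with a change. Each run holds the 250 bases before the start site, on the strand of the gene, at chr1:175631943-175632192 (Kmo, plus strand), chr17:83846791-83847040 (Haao, minus strand) and chr7:44836038-44836287 (Il4i1, plus strand). These start sites lie inside the GENCODE genes, 11812 bases from the outermost annotated start of Kmo, 1173 from that of Haao and 19901 from that of Il4i1. Capitals mark a match to GCGTG, the core of the element bound by the aryl hydrocarbon receptor.
Kmo: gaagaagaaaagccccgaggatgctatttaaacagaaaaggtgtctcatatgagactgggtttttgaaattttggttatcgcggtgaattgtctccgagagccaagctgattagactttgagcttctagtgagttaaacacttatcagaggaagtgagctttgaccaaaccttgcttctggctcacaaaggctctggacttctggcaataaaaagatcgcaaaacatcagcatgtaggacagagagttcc
Haao: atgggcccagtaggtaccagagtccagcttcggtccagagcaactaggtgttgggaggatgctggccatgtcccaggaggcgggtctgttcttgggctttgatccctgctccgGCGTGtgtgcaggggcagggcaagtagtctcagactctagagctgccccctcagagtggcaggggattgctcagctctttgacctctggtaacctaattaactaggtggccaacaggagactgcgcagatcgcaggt
Il4i1: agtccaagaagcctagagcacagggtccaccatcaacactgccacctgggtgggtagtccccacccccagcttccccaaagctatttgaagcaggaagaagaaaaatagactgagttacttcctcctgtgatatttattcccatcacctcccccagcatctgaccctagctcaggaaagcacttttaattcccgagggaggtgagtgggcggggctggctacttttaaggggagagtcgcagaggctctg
Both strands were searched for GCGTG, for the interferon elements TTCNNNGAA and GAAANNGAA, for the AP-1 element TGANTCA and for the cyclic AMP element TGACGTCA, whose letters may overlap one another. GCGTG occurred once, in Haao at positions −137 to −133 relative to the start site, and 28.2% of all 32851 upstream windows of this length hold it. The other motifs did not occur in these 3 windows, and the shares of all windows with them were 7.02%, 7.13%, 6.75% and 1.55% in the order given.

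Arg1 and Arg2 encode the arginases, and neither passed the threshold. Arg1 lies at chr10:24915221-24927484 on the minus strand and Arg2 at chr12:79130777-79156301 on the plus strand (GRCm38). Their coding sequences were identical at 64.1% of aligned bases. No window of 50 bases of the Arg1 transcript occurred in another gene. For Arg2, 28.1% of exon bases are also exon bases of a gene on the opposite strand, most of all Vti1b, which did not pass the threshold itself (703 ± 94.8 before and 769 ± 83.0 after culture, limma adjusted p = 0.303).

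Arg1 was the least reproducible of the enzyme genes and among the least reproducible genes of the table. Its normalized counts before culture were 885, 914, 2724, 207 and 1751, and after culture 1927, 4871, 457 and 1032. The groups overlapped, with replicate 4 lowest and replicate 3 highest before culture, and replicate 3 lowest and replicate 2 highest after culture. By library name those last samples carry the numbers 4 and 3, as do the lowest and highest before culture, and 3 of the 4 library numbers found in both groups had more Arg1 after culture. The labels do not say that a number marks an animal. The means were 1296 ± 968 (SD, n = 5) and 2072 ± 1962 (SD, n = 4). The spread within groups was 1.42 on the log2 scale, against a median of 0.228 over all tested genes, and 99.9% of tested genes had a smaller one. The log2 fold change was 0.60 (SE 0.698, 95% interval −0.91 to 2.11, limma adjusted p = 0.461). It was 0.02 without replicate 2 after culture, 0.05 without replicate 4 before culture and 1.16 without replicate 3 after culture. With library numbers as a block in the fit it was 0.58 and passed the threshold (limma adjusted p = 0.0446). With title numbers as the block it was 0.82 and did not (limma adjusted p = 0.336).

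The summed macrophage and monocyte markers differed between the same samples. They were lowest in the samples with least Arg1, at 146376 in replicate 4 before and 177308 in replicate 3 after culture. They were highest in the sample with most Arg1 after culture, at 322754, while before culture replicate 2 had the highest sum (208833) and replicate 3 the next (190444). Without Lyz2, a lysozyme gene, the sum before culture was highest in replicate 3 (92148), which had the most Arg1, followed by replicate 2 (88118), and the other samples named kept their places. Other samples did not keep the order. Before culture replicate 5 had more Arg1 than replicate 2 (1751 and 914) but a lower sum (147586 and 208833). After culture replicate 4 had less Arg1 than replicate 1 (1032 and 1927) but a higher sum (274351 and 246419). Both held without Lyz2 too, at 72983 and 88118 before and 62082 and 59943 after culture. Of the 16 genes on the macrophage and monocyte list, 4 were higher, 6 were lower and 6 did not pass the threshold, and none was at 0. The part of these cells in the spread of Arg1 was not tested.

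Arg2 stayed within a narrower range. Its normalized counts were 262, 304, 501, 316 and 378 before and 356, 395, 277 and 260.0 after culture, with full overlap. The means were 352 ± 93.1 (SD, n = 5) and 322 ± 64.3 (SD, n = 4), and the log2 fold change was −0.11 (SE 0.181, 95% interval −0.51 to 0.28, limma adjusted p = 0.591).

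Nos2 fell to a trace after culture. It lies at chr11:78920787-78960254 on the plus strand (GRCm38), and no window of 50 bases of its transcript occurred in another gene. Its normalized counts were 157, 209, 191, 126 and 93.1 before and 6.18, 14.4, 6.37 and 15.2 after culture, where the 4 samples held 53 reads together. All samples after culture were far below all samples before. The means were 155 ± 47.1 (SD, n = 5) and 10.5 ± 4.94 (SD, n = 4), a 14.7-fold drop of −3.81 on the log2 scale (SE 0.317, limma adjusted p = 1.78e-07). Neutrophil markers fell beside it, with all 7 tested genes of that list lower. So did all 8 endothelial, all 7 fibroblast and 6 of 8 epithelial markers, and 9 of 10 of type 1 conventional dendritic cells. Of 16 macrophage and monocyte markers 6 were lower and 4 higher. Without Lyz2 those markers summed to 57521 to 92148 before and 43613 to 81046 after culture, with overlapping groups. The part of other cells in the Nos2 change was not tested.

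Tph1 was at or near the floor in every sample. The samples before culture held 7, 1, 3, 5 and 4 reads, and those after culture 0, 7, 6 and 7 reads. Its mean normalized count was 4.52 ± 2.44 before (SD, n = 5) and 4.02 ± 2.68 after culture (SD, n = 4), below the minimum of 10 for a test. Without a filter on low values the log2 fold change was −0.32 (limma adjusted p = 0.684), so a difference was not detectable at this depth. Mast cells are a known source of TPH1. Of 10 mast cell and basophil markers, 6 were also too low to test, 3 were lower after culture (Hdc, Gata2 and Cma1) and Cpa3 did not pass the threshold. Their sum was 2672 to 4550 before and 74.2 to 155.6 after culture, but Hdc and Gata2 held 97.5 to 98.8% of it before culture. The other 8 summed to 55.0 to 93.7 before and 10.6 to 63.7 after culture, with overlapping groups.

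**Figure D2:**
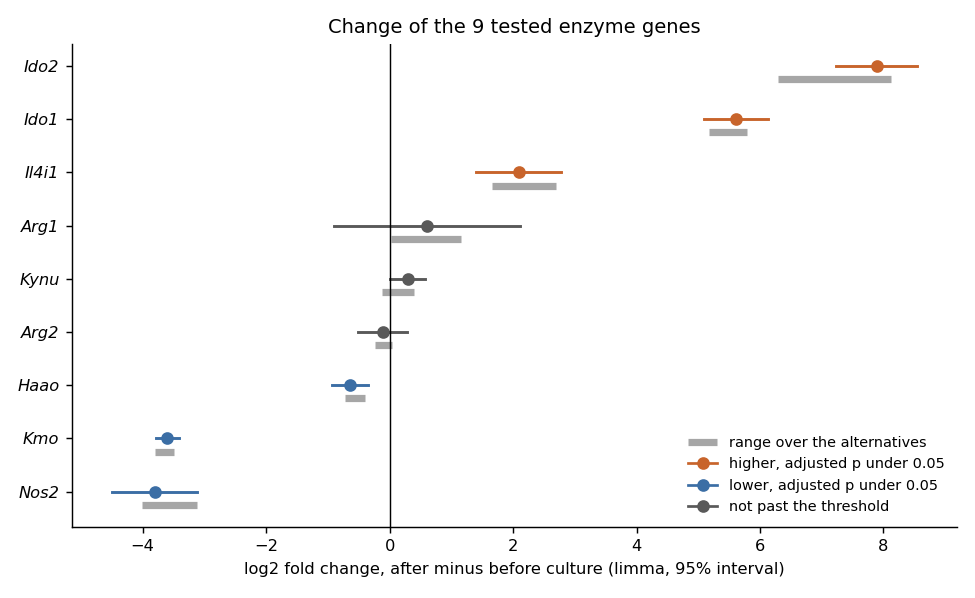
Log2 fold changes, after minus before culture, of the 9 tested enzyme genes from limma on log2(normalized count + 1), with 95% intervals as thin lines and, in grey, the range over the alternative settings. Ido2 and Ido1 stand at 7.89 and 5.61 and Kmo and Nos2 at −3.60 and −3.81, while the intervals of Arg1 and Arg2 cross 0.

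Set per kilobase of the longest coding transcript, so that levels could be compared between genes, the order of the enzyme genes changed with culture. Before culture Kmo (898 ± 47.8 normalized counts per kilobase) and Arg1 (878 ± 655) had the highest means, and they did not differ beyond the spread of Arg1. By mean, Haao (373 ± 38.9) came next, then Arg2 (247 ± 65.2) and Kynu (234 ± 38.3), and the samples of Arg2 overlapped those of both neighbours. Arg1 ran from 0.632 (replicate 4) to 5.25 times the level of Arg2 before culture, so its place did not hold in every sample. Nos2 was at 37.0 ± 11.2, Ido1 at 12.2 ± 4.57, Il4i1 at 6.46 ± 2.73, Ido2 at 1.14 ± 0.739 and Tph1 at 0.991 ± 0.535 (SD, n = 5), where Ido1 overlapped Il4i1 and Ido2 overlapped Tph1.

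After culture Arg1 (1403 ± 1328) and Ido1 (596 ± 95.3) had the highest means, and the samples of Arg1 overlapped those of Ido1, Ido2 and Kynu. Ido2 (346 ± 70.0), Kynu (285 ± 41.7), Haao (241 ± 45.9) and Arg2 (225 ± 45.0) followed, each overlapping the next, and Ido2 did not overlap Ido1. Kmo was seventh (73.9 ± 8.24), followed by Il4i1 (27.4 ± 5.74), Nos2 (2.51 ± 1.18) and Tph1 (0.882 ± 0.588) (SD, n = 4). With length taken as all exon bases of a gene instead, Arg2 stood above Haao before culture, and above Kynu and Haao after culture. The value of Il4i1 carries the doubt given above.

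**Figure D3:**
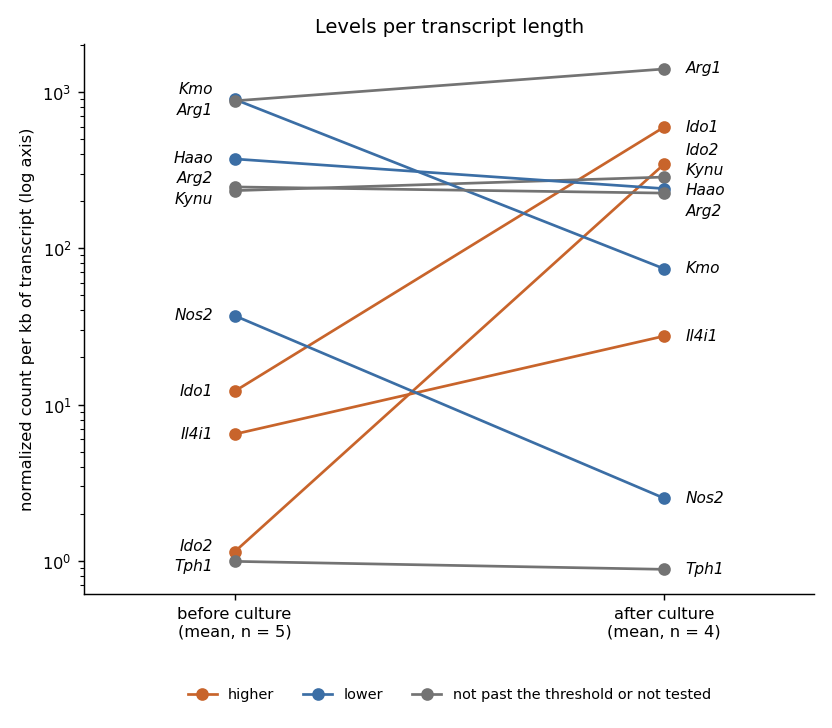
Mean normalized count per kilobase of the longest coding transcript (log axis) of each enzyme gene before (n = 5) and after (n = 4) culture, joined by a line coloured by its limma call. Ido1 and Ido2 cross from the lower part of the scale to the 2 places after Arg1 (596 and 346 beside 1403), while Kmo drops from the top to seventh place.

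Genes around these enzymes were read from 7 lists of the same pathways, whose shares of called genes are set beside the 68.8% of all tested genes. In the list of the kynurenine pathway and NAD synthesis, 6 of 13 tested genes were higher and 3 lower. Tdo2, the other enzyme that opens the tryptophan ring, rose from 9.33 ± 2.34 (SD, n = 5) to 45.1 ± 12.1 (SD, n = 4), with a log2 fold change of 2.15 (limma adjusted p = 1.36e-05), and it passed the filter only through its level after culture. Nampt, the rate-limiting enzyme of NAD salvage, rose from 3002 ± 221 to 9287 ± 751 (log2 fold change 1.63). Afmid fell from 290.4 ± 47.4 to 150.0 ± 33.4 (−0.96). Got2, a mitochondrial aminotransferase, went from 6062 ± 383 to 4381 ± 327 (−0.47), but was not called when GC content and gene length were regressed out (−0.06, limma adjusted p = 0.512). Qprt stood at 44.1 ± 7.87 and 54.1 ± 21.3, Kyat1 at 81.6 ± 12.6 and 62.7 ± 9.83 and Kyat3 at 86.8 ± 15.7 and 97.4 ± 15.9, and these 3 did not pass the threshold. Kyat1, 1 of the aminotransferases that make kynurenic acid, did without replicate 3 after culture (limma adjusted p = 0.0477), and Qprt did when GC content and gene length were regressed out (limma adjusted p = 0.0498).

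Among genes that move tryptophan and kynurenine or respond to them, 7 of 14 were higher and 5 lower. Slc7a5, the light chain of the large neutral amino acid transporter, fell from 4413 ± 552 (SD, n = 5) to 891 ± 31.1 (SD, n = 4), with a log2 fold change of −2.30 (limma adjusted p = 1.21e-10). Slc7a11, the cystine transporter chain, rose from 3334 ± 745 to 20125 ± 1767 (2.62). Ahr, the receptor that kynurenine and other tryptophan products can bind, fell from 9048 ± 573 to 2905 ± 178 (−1.64), while Ahrr rose 95.8-fold (6.58). The other listed targets of that receptor, named here after their values were seen, moved both ways. Cyp1a1 and Cyp1b1 rose by 3.03 and 2.89 on the log2 scale, and Tiparp fell by 1.34. Wars1, the tryptophanyl-tRNA synthetase, rose from 2041 ± 229 to 2952 ± 128 (0.54). Eif2ak4, the kinase GCN2 that senses uncharged tRNA, went from 1572 ± 54.4 to 1296 ± 53.0 (−0.28) and was not called when GC content and gene length were regressed out (−0.06).

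Among genes of serotonin and melatonin metabolism, 3 of 6 tested were higher and 2 lower. Of the 3 higher genes, Maoa had overlapping groups (0.44, limma adjusted p = 0.0434) and lost its call in 9 of 21 alternatives. Slc6a4, the serotonin transporter, rose from 130.2 ± 59.8 (SD, n = 5) to 829 ± 167 (SD, n = 4), with a log2 fold change of 2.76 (limma adjusted p = 9.01e-07). Slc18a2, a vesicular monoamine transporter, rose from 160.5 ± 15.8 to 215 ± 28.1 (0.41), with overlapping groups. Inmt, a methyltransferase of indole amines, fell from 482 ± 187 to 31.5 ± 20.6 (−3.99). Maob, a monoamine oxidase, fell from 31.9 ± 11.2 to 4.16 ± 2.37 (−2.70), and it passed the filter only through its level before culture. Tph2 and Ddc, the brain tryptophan hydroxylase and the decarboxylase that completes serotonin synthesis, had mean counts under 10 and were not tested.

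Of the genes for arginine transport, the urea cycle and proline, 2 of 11 tested were higher and 6 lower. Both higher genes encode the enzymes that rebuild arginine from citrulline. Ass1 rose from 2615 ± 71.2 (SD, n = 5) to 9393 ± 847 (SD, n = 4), with a log2 fold change of 1.84 (limma adjusted p = 1.27e-10), and Asl from 991 ± 77.8 to 1422 ± 81.3 (0.52). Gatm, which uses arginine to start creatine synthesis, fell from 2497 ± 174 to 128 ± 36.0 (−4.33). Slc7a1, a cationic amino acid transporter, fell from 3418 ± 159 to 1594 ± 115 (−1.10). Its relative Slc7a2 stood at 2715 ± 409.6 and 2140.1 ± 264 (−0.34, limma adjusted p = 0.0195), with overlapping groups, and was not called with upper quartile scaling, without replicate 2 before or without replicate 4 after culture, with limma adjusted p up to 0.0787.

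In the polyamine list, which follows ornithine onward, 2 of 12 genes were higher and 6 lower. Odc1, ornithine decarboxylase, fell from 8706 ± 500.3 (SD, n = 5) to 3511 ± 593 (SD, n = 4), with a log2 fold change of −1.32 (limma adjusted p = 6.28e-08). Sat1, which acetylates polyamines for export, fell from 4257 ± 214 to 2667 ± 121 (−0.67). Smox, spermine oxidase, rose from 1735 ± 323 to 2459 ± 289 (0.52). Amd1 was higher with overlapping groups (0.30, limma adjusted p = 0.0268). It lost its call in 5 of the 9 fits that left out 1 sample and turned to −0.05 when GC content and gene length were regressed out.

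In the list of nitric oxide and tetrahydrobiopterin, the cofactor of nitric oxide synthases and tryptophan hydroxylases, 3 of 11 tested genes were higher and 7 lower. Of the 3 higher genes, Spr (0.31, limma adjusted p = 0.0492) lost its call in 10 of 21 alternatives. The list median was −1.07, beside 0.01 over all tested genes. It was the lowest of the 7 lists, whose other medians ran from −0.36 to 0.22. Nos3, the endothelial synthase, fell from 202 ± 42.3 (SD, n = 5) to 16.7 ± 2.96 (SD, n = 4), with a log2 fold change of −3.51 (limma adjusted p = 3.98e-09), and all 8 endothelial markers fell beside it. Nos1, the neuronal synthase, rose from 2.70 ± 2.57 to 54.4 ± 17.4 (4.27), and like Ido2 it passed the filter only through its level after culture. Ddah2, which degrades inhibitors of these synthases, fell from 218 ± 26.1 to 33.0 ± 6.16 (−2.70). Gch1, the enzyme that starts tetrahydrobiopterin synthesis, fell from 1275 ± 39.1 to 625 ± 181 (−1.07), and Pts, which acts after it, rose from 404 ± 38.9 to 673 ± 61.6 (0.73). The part of endothelial cells in these changes was not tested.

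Of 17 genes listed as upstream regulators of these enzymes, 6 were higher and 7 lower. Relb, a subunit of the noncanonical NF-kB pathway, rose from 3025 ± 221 (SD, n = 5) to 10029 ± 739 (SD, n = 4), with a log2 fold change of 1.73 (limma adjusted p = 4.53e-10). Irf1, an interferon-induced factor, stood at 6070.4 ± 492 and 6563 ± 724 (0.11, limma adjusted p = 0.282) and passed the threshold with upper quartile scaling and when GC content and gene length were regressed out. Socs3, an inhibitor of cytokine signalling, fell from 19059.9 ± 2672 to 1419.8 ± 313 (−3.76), and Ptgs2, the inducible cyclooxygenase, from 10854 ± 694 to 2771 ± 657 (−2.00).

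**Figure D4:**
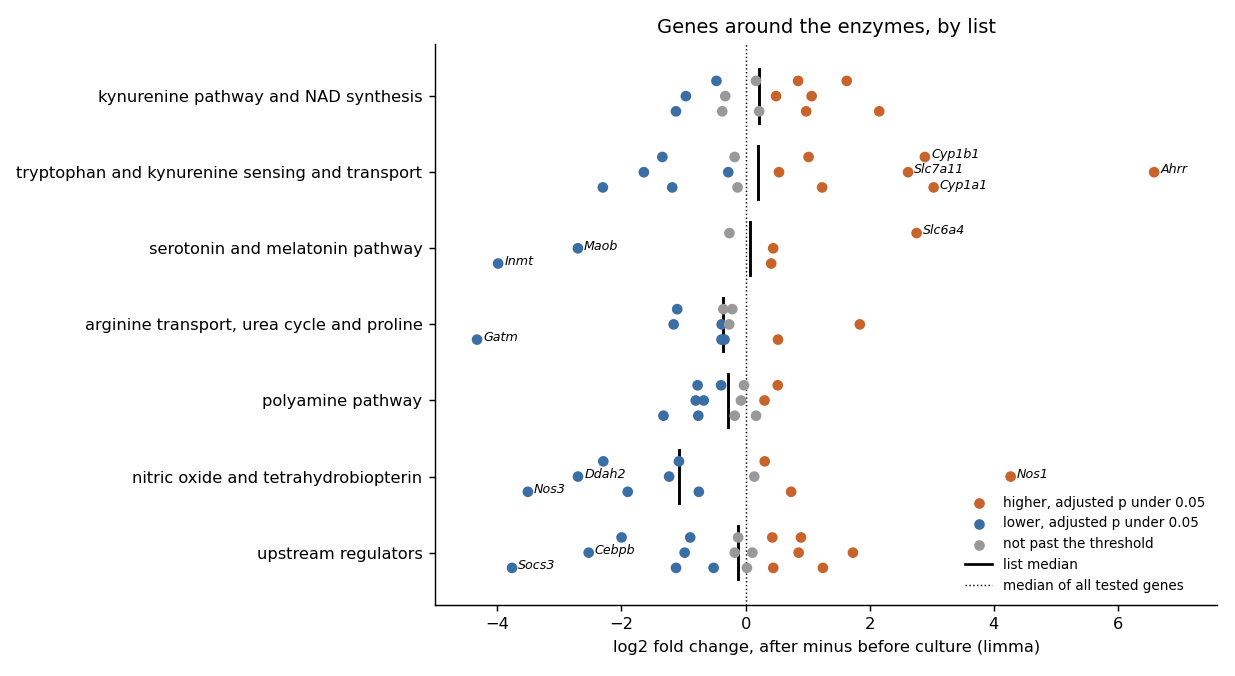
Log2 fold changes, after minus before culture, of the tested genes in 7 lists around the enzymes, coloured by their limma call, with the median of each list as a bar and the median of all tested genes as a dotted line. Each list holds genes on both sides of 0, and genes beyond 2.5 in either direction are named, with Ahrr farthest up at 6.58 and Gatm farthest down at −4.33.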

How the data were processed

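Total RNA of CD103+ lung dendritic cells was sequenced in 5 samples before and 4 samples after culture. The authors deposited 1 table of normalized counts (signal, never below 0), and the submitters' processing notes name DESeq2 and GRCm38. The aligner, counting tool, strandedness and annotation are not given in the sources used here. Of all values, 100% were whole multiples (within 1e-06 reads) of 1 step per sample, so whole reads were recovered and depth was computed from them (14.7 to 35.3 M). Samples were grouped by title. The 3782 rows without a symbol were left out, and they held 3.87 to 10.9% of reads.

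Genes with a mean of at least 10 were fitted with limma 3.58.1 (R 4.3.3) on log2(value + 1), with group as the sole factor and a trend in the prior variance. The tests were two-sided, with Benjamini-Hochberg adjustment over all 18202 genes. Alternatives were other pseudocounts, filters and scalings, edgeR 4.0.16 and DESeq2 1.42.0 on recovered reads, replicate blocks, a correction for GC content and length, and leaving out each sample. The fits were also run on simulated data in which far fewer genes changed than were called here. Those runs therefore do not cover the setting of these data.

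The 10 genes and the lists (178 entries) were chosen with earlier results of these data known. From each pathway list the text names the called genes with the 2 smallest adjusted p in each direction and a few fixed by name. Likeness is given for the largest rise and the largest fall among members with a mean of at least 100. Coordinates and exons come from GENCODE M21, and coding sequences were aligned with Biopython 1.88. Protein sequences were not used here. A gene that this rule names and a sequence comparison are not reported here.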

Additional observations from a re-analysis of the deposited data

Results flagged for a closer look

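In 4 cases a single sample stood apart from the rest of its group, judged by the ratio of its gap to the nearest sample to the whole range (Dixon's test at the 95% level). The test was made in both groups for 49 genes, 98 groups in all, and chance gives about 1 such case in 20 groups, so 4 is no more than chance gives. Tph1 was 0 in replicate 1 after culture, where the nearest sample was at 5.31. Asl was 852.9 in replicate 4 before culture and 1013 in the nearest sample. Relb was 2634 in replicate 4 before culture and 3094 in the nearest sample. Slc7a2 was 1746 in replicate 4 after culture and 2237 in the nearest sample.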

How the results depend on the processing

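Ido1, Ido2, Il4i1, Kmo, Haao and Nos2 kept their direction and their call under every alternative that gave a value, which for Il4i1 leaves out the minimum mean of 50. Counts of higher and lower members ran from 3 to 4 and from 3 to 3 when 1 sample was left out. Kynu passed the threshold with upper quartile (0.40), TMM (0.32) or quantile (0.35) scaling, and was −0.12 when GC content and gene length were regressed out. Upper quartile scaling moved the median of all tested genes to 0.11 and regressing out GC content and length moved it to 0.13. Arg2 was 0.0328 with quantile normalization and ran from −0.22 to 0.0215 (without replicate 3 before culture) when 1 sample was left out. Of 84 tested genes of the 7 lists, 62 had the same call throughout, and 2 called genes (Amd1 and Il4ra) changed sign when GC content and gene length were regressed out. The cause of these shifts was not tested. Both the sample titles and the library names carry numbers shared by the groups, and neither is said to mark an animal. Deviations of samples with the same library number correlated at 0.081, 0.247, 0.349 and 0.045, and 7 of 8 samples correlated best with their own number, while with the title numbers the values were 0.081, 0.08, −0.213 and −0.04. With the replicate block on library numbers 5 members were higher, since Kynu (0.33, limma adjusted p = 0.0338) and Arg1 (0.58, limma adjusted p = 0.0446) passed, where over all alternatives the adjusted p of Arg1 ran up to 0.982. Depth limits Ido2 before culture, Nos2 after culture and Tph1 in both groups. The sums without Lyz2 or without Hdc and Gata2, and the ratios per kilobase of all exon bases, were chosen after seeing the data.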
